A study of Mus musculus with 36 samples.

Results

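The genes described here are the matrix metalloproteinases (Mmp), the membrane-anchored and secreted proteases of the ADAM and ADAMTS families, and the tissue inhibitors Timp2, Timp3 and Timp4, measured in mouse liver. They were taken by a rule on symbols, set with earlier results of these data known, and 3 symbols (Mmp7, Mmp12 and Adam11) were left out by the same rule. This gave 74 genes of the 19664 measured: 20 Mmp, 33 Adam, 18 Adamts and 3 Timp genes. Of the 74, 42 had a mean above the 25th percentile of all gene means. No value was used here for Mmp15 and Adamts2.

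Liver RNA of 36 mice was measured on Affymetrix whole-transcript gene arrays, 1 mouse per array. LKO mice carried a liver-specific knockout of Cyp51, which encodes an enzyme of cholesterol synthesis, and LWT mice were their littermates without it. All were of a mixed strain, 129/Pas (10%) × C57BL/6J (90%), and the sources used here do not name the Cre transgene. Females and males of both genotypes ate 1 of 3 diets for 16 weeks after weaning at 3 weeks of age. LFnC was a chow low in fat and free of cholesterol, HFnC a high-fat diet free of cholesterol, and HFC the high-fat diet to which cholesterol was added (1.25% by weight). The chow came from another maker than the high-fat diets, so HFnC against LFnC compares whole feeds. This gave 12 groups of 3 mice (LFnC, HFnC and HFC, female and male, LWT and LKO). The livers were taken after a 5 h fast, and the labels put replicates 1, 2 and 3 of every group in batches 1, 2 and 3.

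Metalloproteinases are zinc-dependent enzymes that cut the proteins around cells. Most Mmp enzymes are secreted as inactive precursors and degrade collagen, gelatin and proteoglycans, while ADAM enzymes sit in the cell membrane and release the outer part of growth factors, cytokines and receptors. ADAMTS enzymes are secreted and act on procollagens, proteoglycans, fibrillin-rich fibres or von Willebrand factor, and the Timp proteins block the active site of many of these enzymes. In the liver, stellate cells, macrophages and neutrophils are known sources of matrix-degrading enzymes, and scarring is accompanied by the turnover of collagen. In whole liver, fewer cells of a type and less RNA per cell cannot be told apart.

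The 36 arrays had medians between 7.45 and 7.59 on the log2 scale. All 6 hepatocyte markers lay above the 95th percentile on 36 of 36 arrays. Cyp51, the targeted gene, ran from 8.44 to 9.38 in LKO and from 9.68 to 10.5 in LWT mice on LFnC, and its ranges did not overlap on HFnC or HFC either. Mice within a group were uneven in places. In the HFC male LWT group, replicate 1 had the highest value of its 3 mice for 21 of the 21 members that rose in LKO livers on LFnC, and the same held for 77.6% of all 2787 genes that rose there. Replicate 3 of that group was the lowest for 19 of the 21. In the HFnC female LKO group, replicate 1 was the highest for 18 of the 21, against 85.5% of those 2787 genes. Among LKO females on LFnC, replicate 1 was the highest for 18 of the 21 (85.7%), against 51.2% of those 2787 genes, and replicate 2 the lowest for 17. Results that rest on the HFC male LWT mice are given with and without replicates 1 and 2, which were picked for their values. The mouse then left is the lowest for most of these members, so smaller changes there follow in part from that choice.

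Promoter windows from RefSeq (GRCm38.p6) were available for 45 of the 74 members. The 120 bases upstream of the annotated start are shown for 6 members of a run of Mmp genes on chromosome 9, of which Mmp13 and Mmp8 rose on LFnC and the other four were not called, and for Timp2, Timp3 and Mmp14, whose levels rose. Capitals mark an AP-1 motif (TGACTCA, either strand), a TATA box (TATAAA, gene strand) or a GC box (GGGCGG, either strand). These are Mmp13 (chr9:7272394-7272513, plus strand), Mmp3 (chr9:7445702-7445821, plus), Mmp10 (chr9:7502222-7502341, plus), Mmp1a (chr9:7464021-7464140, plus), Mmp1b (chr9:7388027-7388146, minus), Mmp8 (chr9:7558309-7558428, plus), Timp2 (chr11:118355412-118355531, minus), Timp3 (chr10:86300292-86300411, plus) and Mmp14 (chr14:54431478-54431597, plus), each written 5′ to 3′ on the gene's strand.
Mmp13: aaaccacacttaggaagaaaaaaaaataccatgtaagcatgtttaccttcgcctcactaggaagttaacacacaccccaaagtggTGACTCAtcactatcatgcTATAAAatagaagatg
Mmp3: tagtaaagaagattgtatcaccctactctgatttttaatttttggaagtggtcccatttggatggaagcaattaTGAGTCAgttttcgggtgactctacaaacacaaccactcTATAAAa
Mmp10: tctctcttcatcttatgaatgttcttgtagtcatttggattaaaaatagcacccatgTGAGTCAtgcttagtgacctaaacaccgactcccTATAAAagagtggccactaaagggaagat
Mmp1a: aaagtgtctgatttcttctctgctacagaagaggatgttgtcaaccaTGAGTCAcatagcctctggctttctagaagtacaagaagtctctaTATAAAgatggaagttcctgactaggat
Mmp1b: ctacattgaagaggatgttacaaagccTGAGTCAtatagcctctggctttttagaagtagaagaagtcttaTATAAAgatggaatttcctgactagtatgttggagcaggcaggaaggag
Mmp8: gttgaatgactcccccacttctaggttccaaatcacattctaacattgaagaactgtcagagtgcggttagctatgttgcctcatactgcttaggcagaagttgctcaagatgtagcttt
Timp2: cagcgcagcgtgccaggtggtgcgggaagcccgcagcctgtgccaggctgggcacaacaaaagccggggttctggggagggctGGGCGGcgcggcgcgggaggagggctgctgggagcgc
Timp3: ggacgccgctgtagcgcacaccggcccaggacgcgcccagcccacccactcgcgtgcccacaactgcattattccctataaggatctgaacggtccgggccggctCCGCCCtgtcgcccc
Mmp14: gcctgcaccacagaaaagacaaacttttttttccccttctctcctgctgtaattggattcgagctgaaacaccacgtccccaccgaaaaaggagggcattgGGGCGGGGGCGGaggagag

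Of the 8 members of the chromosome 9 run, 5 (Mmp13, Mmp3, Mmp10, Mmp1a and Mmp1b) held an AP-1 motif followed by a TATA box. Mmp8, which rose, and Mmp27 held none of the 3 motifs, and Mmp20 held a TATA box alone. The AP-1 motif began 35 bases before the start in Mmp13, 46 in Mmp3, 63 in Mmp10, 73 in Mmp1a and 93 in Mmp1b. Over the 250 bases before the start, 7 of the 45 members with a window held an AP-1 motif, against 4.46% of 32851 windows. A GC box was held by 17, against 32.7%, and a TATA box by 9, against 7.59%. A member with several windows (48 windows for the 45) was counted if any held the motif, while the percentages are per window. Of the 14 members with a window that rose on LFnC, 2 held an AP-1 motif, 8 a GC box and 1 a TATA box. Of the 31 others, 5, 9 and 8 did. A match describes the letters and is not a measured binding site.

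The first question was what the loss of Cyp51 in the liver did to these genes on chow. On LFnC, 21 of the 74 members rose and 14 fell in LKO against LWT livers, where a call means a limma p under 0.05 after Benjamini-Hochberg adjustment over all 19664 genes. These 35 are 47.3% of the members, against 33.4% of all genes called. The 21 make 28.4% of the members, against 14.2% of all genes called higher, and the 14 make 18.9%, against 19.3% of all genes called lower. Members that rose included the gelatinases Mmp2 and Mmp9, the collagenase Mmp13, Timp2 and Timp3, the sheddases Adam10 and Adam17, and the proteoglycan-cleaving Adamts5 and Adamts9. The median log2 change over the 74 members was -0.06, and over all genes -0.07. For 10 members the 6 LKO mice all lay above the 6 LWT mice (Adam8, Adam10, Adam15, Adamts9, Adamts10, Adamts12, Adamts15, Mmp2, Mmp13 and Timp2), as they did for 6.24% of all genes. No member had all 6 LKO mice below the 6 LWT mice, against 4.32% of all genes. With each array centred on its median, 19 members were called higher and 25 lower, and of 9982 genes called, 22.3% were higher. Without LFnC female LKO replicate 3, 18 rose and 5 fell, and 4740 of all genes were called.

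**Figure D1:**
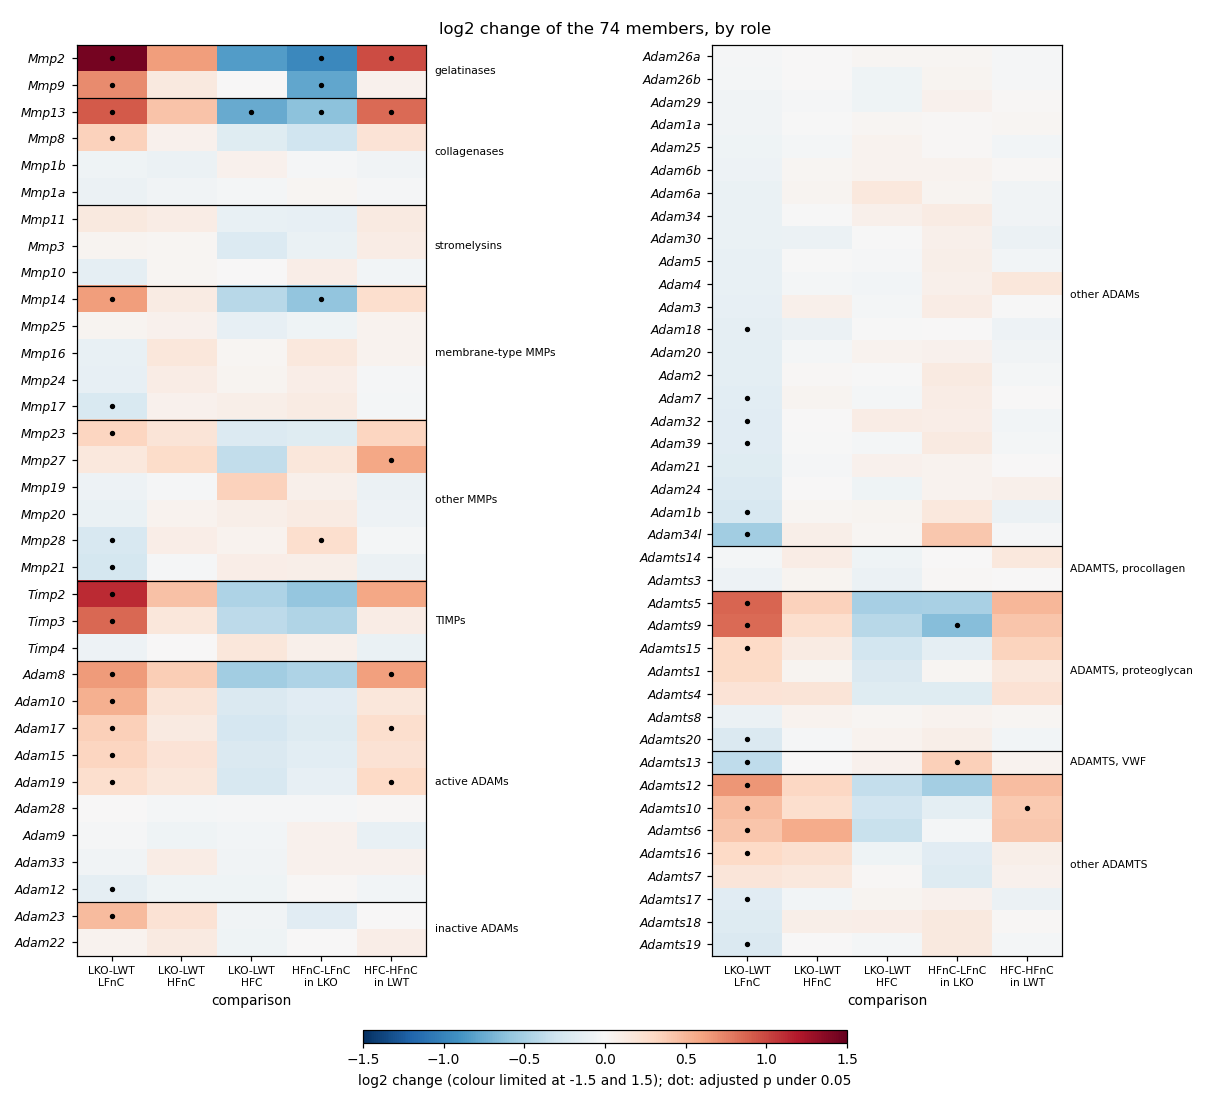
The log2 change of all 74 members, grouped by role and ordered by the change on LFnC, in 5 comparisons. Red is higher and blue lower in the first-named group, colours stop at -1.5 and 1.5, and a dot marks an adjusted p under 0.05. Of the 3 genotype comparisons, LFnC holds 35 dots, HFnC 0 and HFC 1.

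Both gelatinases rose. Mmp2, which cuts gelatin and basement membrane collagen, had log2 intensities on LFnC of 8.60, 8.61 and 8.25 in females and 8.52, 8.54 and 8.53 in males in LWT mice. In LKO mice it had 10.50, 8.95 and 9.34 in females and 10.07, 10.29 and 10.52 in males. All 6 LKO mice lay above all 6 LWT mice, and the males were closer together than the females. The rise was 1.44 (SE 0.28, adjusted p = 0.000472), or 2.71-fold, and within the 3 batches it ran from 1.04 to 1.73. It was 1.11 in females and 1.76 in males, a difference that was not called (0 members in the genotype by sex contrast). Mmp9, the gelatinase B of leukocytes, had 7.39, 7.67 and 7.33 in females and 7.36, 7.12 and 7.22 in males in LWT mice and 8.51, 7.80 and 7.88 in females and 7.62, 8.38 and 8.15 in males in LKO mice. Its lowest LKO mouse, male replicate 1, was within the LWT range. Mmp9 rose by 0.71 (SE 0.114, adjusted p = 8.2e-05), 1.63-fold, from 0.69 to 0.74 within batches.

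Among the 4 collagenases, Mmp13 and Mmp8 rose. Mmp13 is the main interstitial collagenase of rodents. LWT mice on LFnC had 6.41, 6.54 and 6.42 in females and 6.44, 6.44 and 6.18 in males. LKO mice had 7.31, 7.58 and 7.42 in females and 7.34, 7.10 and 7.16 in males, and every LKO mouse lay above every LWT mouse. The rise of 0.92 (SE 0.174, adjusted p = 0.000379), 1.89-fold, ran from 0.85 to 0.99 within batches. Mmp8, the collagenase stored by neutrophils, rose by 0.35 (SE 0.107, adjusted p = 0.0153), with 5.25 to 5.79 in LKO and 5.00 to 5.35 in LWT mice, ranges that overlap. Mmp1a and Mmp1b, rodent relatives of the human interstitial collagenase, had changes of -0.08 (adjusted p = 0.24) and -0.07 (adjusted p = 0.343). None of the 3 stromelysins was called (Mmp3 0.05, Mmp10 -0.14, Mmp11 0.14), with 1 of 4 collagenases and 2 of 3 stromelysins above the 25th percentile of gene means. In the RefSeq order of chromosome 9 (GRCm38.p6), Mmp13 stands 1st and Mmp8 7th in a run of 10 Mmp genes, 8 of them members. The members between them (Mmp1b, Mmp3, Mmp1a and Mmp10, shown above by their promoters and chosen after their values were seen) were not called.

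Of the 5 membrane-type enzymes, Mmp14 rose and Mmp17 fell. Mmp14 sits in the cell membrane, cuts collagen and activates the Mmp2 precursor together with Timp2. Its LFnC values were 9.41, 9.16 and 9.39 in females and 9.20, 9.00 and 8.95 in males in LWT mice. LKO mice had 10.22, 9.91 and 10.03 in females and 9.38, 9.77 and 9.56 in males. The LKO male with the lowest value lay within the LWT female range, and within each sex the genotypes did not overlap. Mmp14 rose by 0.62 (SE 0.144, adjusted p = 0.00228), 1.54-fold, from 0.49 to 0.76 within batches. Mmp17 had a change of -0.23 (SE 0.0733, adjusted p = 0.0183), called lower. Of the 6 other Mmp genes, Mmp23 rose by 0.32 (SE 0.11, adjusted p = 0.0272), and Mmp21 and Mmp28 had changes of -0.27 (SE 0.0613, adjusted p = 0.0022) and -0.24 (SE 0.0696, adjusted p = 0.01), both called lower. Mmp21 was below the 25th percentile of gene means.

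**Figure D2:**
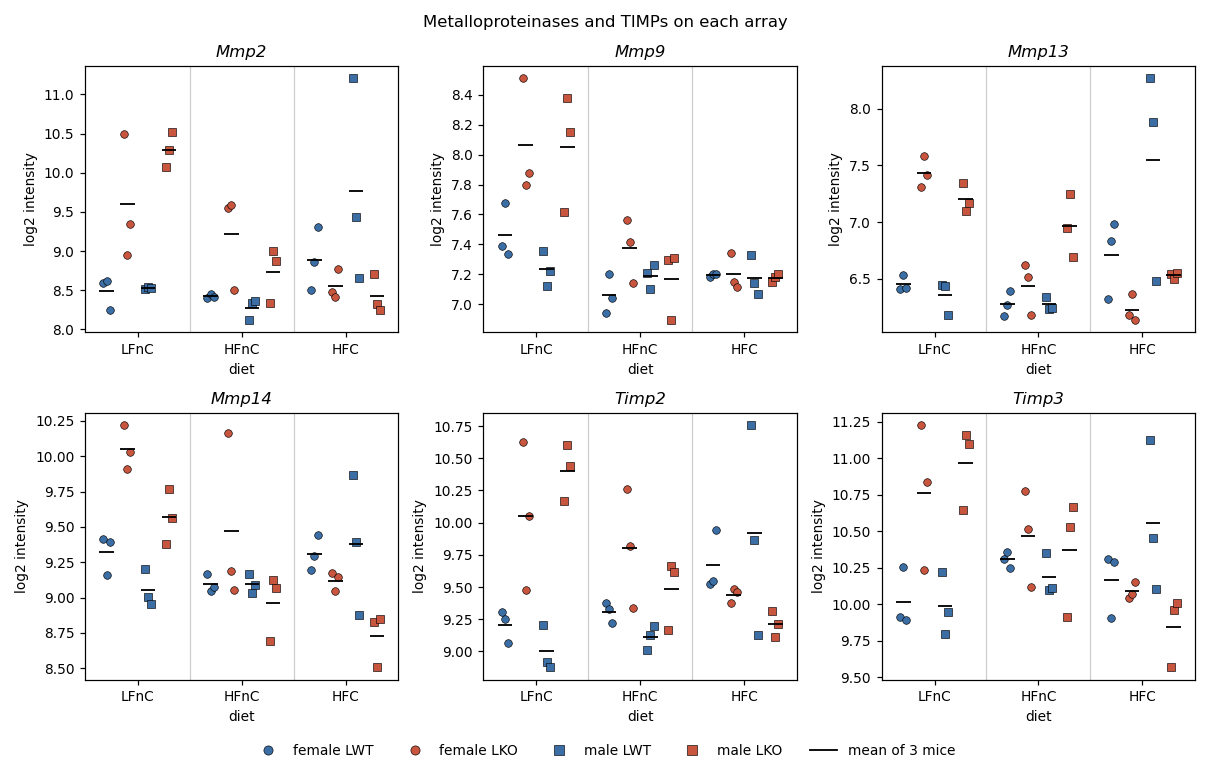
log2 intensity of Mmp2, Mmp9, Mmp13, Mmp14, Timp2 and Timp3 on each of the 36 arrays, by diet. Points are mice (circles female, squares male, blue LWT, red LKO), lines the mean of 3 mice. On LFnC the red points stand above the blue ones, except for 1 or more LKO mice of Mmp9, Mmp14 and Timp3, and on HFC a single male LWT mouse stands highest for 5 of the 6 genes, Mmp9 being the other.

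Timp2 and Timp3 rose and Timp4 was not called. Timp2 inhibits most Mmp enzymes and bridges Mmp14 to the Mmp2 precursor. It had 9.30, 9.25 and 9.07 in females and 9.21, 8.92 and 8.88 in males in LWT mice on LFnC. In LKO mice it had 10.63, 9.47 and 10.05 in females and 10.16, 10.60 and 10.44 in males. The lowest LKO mouse, female replicate 2, was above every LWT mouse. Timp2 rose by 1.12 (SE 0.19, adjusted p = 0.000125), 2.18-fold, from 0.95 to 1.28 within batches. Timp3 is bound to the matrix and also inhibits ADAM enzymes such as Adam17. Its values were 9.91, 10.25 and 9.89 in females and 10.22, 9.80 and 9.95 in males in LWT mice and 11.23, 10.23 and 10.84 in females and 10.65, 11.16 and 11.10 in males in LKO mice. The ranges overlapped through LKO female replicate 2. Timp3 rose by 0.86 (SE 0.164, adjusted p = 0.000383), 1.82-fold, from 0.67 to 1.05 within batches. Timp4 had a change of -0.07 (SE 0.0846, adjusted p = 0.5) and was below the 25th percentile of gene means.

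Of the 9 ADAM genes with a wide tissue distribution and an active protease domain, 5 rose (Adam8, Adam10, Adam15, Adam17 and Adam19) and 1, Adam12, fell. Adam10 releases the outer part of Notch receptors and many other membrane proteins. LWT mice had 9.72, 9.58 and 9.94 in females and 9.80, 9.66 and 9.47 in males, and LKO mice 10.19, 10.08 and 10.28 in females and 10.17, 10.45 and 10.21 in males. The genotypes did not overlap, and Adam10 had the smallest p of the 74 members in this comparison. Its rise was 0.54 (SE 0.0778, adjusted p = 3.23e-05), 1.45-fold, from 0.42 to 0.65 within batches. Adam17, which releases tumour necrosis factor and ligands of the epidermal growth factor receptor, had 9.60, 9.51 and 9.75 in females and 9.42, 9.34 and 9.28 in males in LWT and 9.94, 9.80 and 9.77 in females and 9.68, 10.02 and 9.85 in males in LKO mice. Within each sex every LKO mouse was above every LWT mouse. Adam17 rose by 0.36 (SE 0.0708, adjusted p = 0.000541), 1.28-fold. Adam8, known from leukocytes, rose by 0.64 (SE 0.166, adjusted p = 0.00539), with 7.46 to 7.99 in LKO and 6.86 to 7.30 in LWT mice, ranges that do not overlap. Adam15 rose by 0.32 (SE 0.0768, adjusted p = 0.00324) and Adam19 by 0.26 (SE 0.0689, adjusted p = 0.00698). Adam23, which has no protease activity and is known as a brain surface protein, rose by 0.48 (SE 0.0883, adjusted p = 0.000274), with 9.57 to 9.99 in LKO and 9.02 to 9.63 in LWT mice.

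Among the 7 ADAMTS proteoglycanases, Adamts5, Adamts9 and Adamts15 rose and Adamts20 fell. Adamts5 cleaves aggrecan and versican. LWT mice had 7.52, 7.54 and 7.52 in females and 7.32, 7.31 and 7.56 in males. LKO mice had 8.65, 7.32 and 7.93 in females and 8.71, 8.59 and 8.82 in males. The 3 LKO males stood above every LWT mouse, and the LKO females were spread over more than a log2 unit. Adamts5 rose by 0.88 (SE 0.206, adjusted p = 0.00257), 1.83-fold, with 0.44 in females and 1.31 in males. Adamts9, another versican-cleaving enzyme, had 8.81, 8.87 and 8.85 in females and 8.69, 8.75 and 8.98 in males in LWT and 9.89, 9.43 and 9.77 in females and 9.46, 9.72 and 9.78 in males in LKO mice. The genotypes did not overlap, and the rise was 0.85 (SE 0.167, adjusted p = 0.000527), 1.8-fold, from 0.77 to 0.93 within batches. Adamts15 rose by 0.30 (SE 0.113, adjusted p = 0.0401). Adamts1, a proteoglycanase induced in inflammation, had a change of 0.29 (SE 0.12, adjusted p = 0.0596) and was not called.

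Adamts13, which cuts von Willebrand factor and is made in the liver mainly by stellate cells, was among the members that fell. It had 8.29, 8.43 and 8.27 in females and 8.28, 8.22 and 8.23 in males in LWT and 7.73, 7.94 and 7.99 in females and 8.23, 7.72 and 7.82 in males in LKO mice on LFnC. LKO male replicate 1 was within the LWT range and the other 5 LKO mice were below it. The change was -0.38 (SE 0.0978, adjusted p = 0.00532), and it ran from -0.49 to -0.30 within batches. Of the 8 other ADAMTS genes, 4 rose and 2 fell. Adamts10, which binds fibrillin fibres, rose by 0.46 (SE 0.105, adjusted p = 0.00202), and Adamts12 by 0.66 (SE 0.164, adjusted p = 0.00401), in both cases with all LKO mice above all LWT mice. Adamts6, a close relative of Adamts10, rose by 0.42 (SE 0.164, adjusted p = 0.0488), and Adamts19 had a change of -0.22 (SE 0.0618, adjusted p = 0.00877), called lower.

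**Figure D3:**
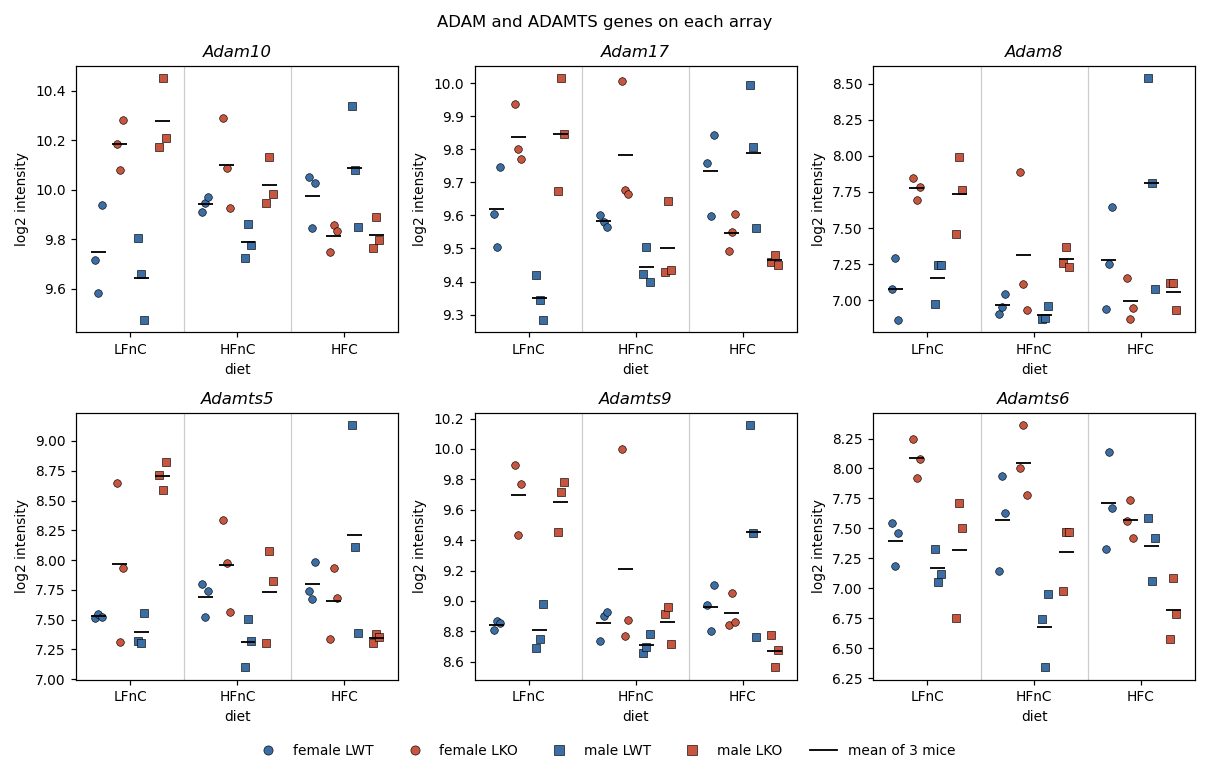
log2 intensity of Adam10, Adam17, Adam8, Adamts5, Adamts9 and Adamts6 on each of the 36 arrays, by diet. Points are mice (circles female, squares male, blue LWT, red LKO), lines the mean of 3 mice. The LKO mice stand above the LWT mice on LFnC for Adam10, Adam8 and Adamts9, and for Adamts6 the females stand above the males in most groups.

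The other 22 ADAM genes are mostly known from testis and sperm, where they take part in fertilisation. On LFnC 6 of the 22 were called lower, against 19.3% of all genes, and none higher. All 22 changes were below 0, while 7218 of the 19664 genes had a change above 0, and their median was -0.12 against -0.07 over all genes. Only 2 of the 22 were above the 25th percentile of gene means, so these values lie at the dim end of the array. The largest of these changes, chosen after the values were seen, was that of Adam34l at -0.52 (SE 0.181, adjusted p = 0.03), with 4.78 to 5.88 in LKO and 5.39 to 6.27 in LWT mice. In the LFnC comparison, with genes below the 25th percentile left out, 20 of the 21 members that rose and 5 of the 14 that fell remained called. Mmp8, Mmp21, Adamts19 and Adamts20 were among the called members below that percentile. That filter uses the mean over all 36 arrays, so a gene can pass through the groups where it is high: Mmp13 passed it, and 5 of its 6 LFnC LWT mice lay below the cut of 6.52.

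Genes that work with the members were also read on LFnC, where 14.2% of all genes were called higher and 19.3% lower. Of 14 matrix proteins on which many of these enzymes act, 12 rose and none fell, with a median log2 change of 0.65, including Lum (1.72, adjusted p = 0.000192), Lox (1.42, adjusted p = 0.000157), Col1a1 (0.99, adjusted p = 0.00157) and Vcan, the substrate of Adamts5 and Adamts9 (0.81, adjusted p = 0.00707). Of 12 activators and inhibitors, 5 rose and 2 fell. Plat and Plau, the plasminogen activators, rose by 1.66 (adjusted p = 4.56e-05) and 0.76 (adjusted p = 0.00484), and Furin, which cuts the precursors of Mmp14 and ADAM enzymes, had a change of -0.17 (adjusted p = 0.00463). Reck, a membrane inhibitor of Mmp2, Mmp9 and Mmp14, was at 0.01 (adjusted p = 0.977). Of 9 partners of Adam10 and Adam17, 5 rose and 2 fell. Rhbdf1 and Rhbdf2, which carry Adam17 to the cell surface, rose by 0.54 (adjusted p = 0.00292) and 0.55 (adjusted p = 0.000653). Tspan17 and Tspan14, which do this for Adam10, rose by 0.65 (adjusted p = 0.000192) and 0.26 (adjusted p = 0.00455), while Tspan10 and Tspan33 had -0.35 (adjusted p = 0.00145) and -0.42 (adjusted p = 0.0119).

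Markers of other liver cells were read in the same contrast, beside the 14.2% of all genes called higher and 19.3% called lower. All 6 ductular markers rose, 5 of 8 macrophage markers rose and 1 (Clec4f, of resident Kupffer cells) fell, 5 of 8 neutrophil markers and 2 of 8 stellate markers (Pdgfra and Pdgfrb) rose, and 1 of 8 lymphocyte markers rose. None of 6 endothelial markers rose and 1 fell, and 1 of 6 hepatocyte markers fell. The mean level of the ductular list, relative to its mean over all arrays, ran from 0.90 to 1.66 in LKO and from -0.55 to -0.07 in LWT mice. That of the macrophage list ran from 0.28 to 1.02 and from -0.58 to 0.0033, that of the neutrophil list from 0.21 to 0.84 and from -0.26 to 0.13, and that of the stellate list from 0.05 to 0.32 and from -0.16 to -0.06. The part of these cells in the members' values was not tested.

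On HFnC no member was called between the genotypes, and 0.0203% of all genes were (4 genes, Cyp51 among them). At an unadjusted p under 0.05 there were 12 members and 2355 genes. The median change over the members was 0.05, and over all genes 0.01. The widest differences were those of Mmp2 at 0.63 (SE 0.28, adjusted p = 0.368), Adamts6 at 0.55 (SE 0.164, adjusted p = 0.186), Timp2 at 0.43 (SE 0.19, adjusted p = 0.36) and Mmp13 at 0.42 (SE 0.174, adjusted p = 0.331). Mmp2 had 8.41, 8.45 and 8.41 in females and 8.12, 8.33 and 8.36 in males in LWT and 9.56, 9.58 and 8.50 in females and 8.34, 9.00 and 8.87 in males in LKO mice. LKO male replicate 1 was within the LWT range and the other 5 LKO mice were above it. Mmp14 had 10.17, 9.19 and 9.06 in LKO females, so that 1 mouse, replicate 1, was about a log2 unit above the other two. Adam10 had 0.19 (SE 0.0778, adjusted p = 0.317), Adam17 0.13 (SE 0.0708, adjusted p = 0.477), Timp3 0.17 (SE 0.164, adjusted p = 0.717) and Mmp9 0.14 (SE 0.114, adjusted p = 0.651). Mmp14 had 0.12 (SE 0.144, adjusted p = 0.787) and Adamts5 0.35 (SE 0.206, adjusted p = 0.521), while Adamts1 (0.04), Adamts13 (0.00) and Timp4 (0.01) lay near 0. No member's 6 LKO mice all lay to one side of the 6 LWT mice, against 0.636% of genes above and 0.158% below.

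The high-fat diet without cholesterol was then set against chow within each genotype. In LKO mice, HFnC against LFnC called 7 members, 5 lower and 2 higher, against 5.04% of all genes (3.24% lower, 1.8% higher). The same contrast in LWT mice called 0 members in limma, against 0.188% of all genes (6 members and 3070 genes at an unadjusted p under 0.05). The difference between the genotypes in this step called 0 members and 0 genes (21 members and 4270 genes at an unadjusted p under 0.05), so the step was not shown to differ. Mmp9 fell in LKO mice on HFnC, with a change of -0.78 (SE 0.114, adjusted p = 0.000454) and values of 7.57, 7.42 and 7.15 in females and 7.30, 6.89 and 7.31 in males. All 6 mice on HFnC were below all 6 LKO mice on LFnC. Mmp14 had a change of -0.59 (SE 0.144, adjusted p = 0.0192), Adamts9 of -0.64 (SE 0.167, adjusted p = 0.0298), Mmp13 of -0.62 (SE 0.174, adjusted p = 0.0399) and Mmp2 of -0.97 (SE 0.28, adjusted p = 0.0431). Adamts13 rose by 0.36 (SE 0.0978, adjusted p = 0.0356) and Mmp28 by 0.25 (SE 0.0696, adjusted p = 0.0383), and both had been lower in LKO than in LWT mice on LFnC. All 7 had been called on LFnC between the genotypes, and both contrasts use the same LKO mice on LFnC.

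Of these 7, Mmp9 was called whichever mouse was left out, and the other 6 lost their call in 5 to 10 of 12 leave-outs. The count was 1 without LFnC female LKO replicate 1, LFnC male LKO replicate 2, HFnC female LKO replicate 2 or 3, or HFnC male LKO replicate 1. It was 2 without LFnC male LKO replicate 3, and 3 without LFnC female LKO replicate 3 or HFnC male LKO replicate 3. Over the leave-outs with 1 to 3 members, 167 to 623 genes were called. Without HFnC female LKO replicate 1, the mouse with the high values, the count was 13, with 11 lower and 2 higher, and 2650 genes were called. In the same contrast all 6 ductular markers, 3 of 8 macrophage markers, 5 of 8 neutrophil markers and 2 of 8 stellate markers fell. So did 4 of 14 matrix proteins, against 3.24% of all genes. The part of these genes was not tested. The ductular level of LKO mice ran from 0.90 to 1.66 on LFnC and from -0.55 to 1.52 on HFnC.

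On HFC, Mmp13 was the only member called between the genotypes, and it was lower in LKO mice, against 0.92% of all genes called lower and 1% called in either direction. LWT mice had 6.32, 6.84 and 6.98 in females and 8.27, 7.88 and 6.48 in males. LKO mice had 6.18, 6.36 and 6.13 in females and 6.54, 6.50 and 6.55 in males. The male LWT replicates 1 and 2 stood more than a log2 unit above the third, and the genotypes overlapped. The change was -0.75 (SE 0.174, adjusted p = 0.0409). Without those male LWT replicates 1 and 2, which leaves 1 mouse in that group, it was -0.22 (adjusted p = 1) and no member was called. The count was also 0 when any one of 9 mice was left out (HFC male LWT replicate 1 or 2, female LWT replicate 3, and each of the 6 LKO mice). It was 2 without female LWT replicate 2, with 326 genes called. Without male LWT replicate 3 it was 17, all lower, with 1933 genes called. In the fit of all mice, 20 members and 2979 genes had an unadjusted p under 0.05. The level of 6 pancreatic acinar genes ran from -1.66 to 3.02 in LWT and from -1.68 to -0.11 in LKO mice on HFC. It was uneven on the other diets too. On LFnC it ran from -1.58 to 3.35 in LWT and from -1.87 to 2.55 in LKO mice. On HFnC it ran from -1.66 to 4.63 in LWT and from -1.85 to 1.84 in LKO mice. With that level as a covariate no member was called. The macrophage level ran from -0.19 to 0.63 in LWT and from -0.28 to -0.14 in LKO mice, and its part was not tested.

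Most of the other members named here had differences in the same direction on HFC that were not called. Timp4 and Adamts13 went the other way. Mmp2 had 8.50, 8.86 and 9.31 in females and 11.21, 9.43 and 8.66 in males in LWT mice and 8.48, 8.42 and 8.77 in females and 8.71, 8.32 and 8.25 in males in LKO mice. The spread came from the LWT mice, above all male replicate 1, whose Mmp2 value was the highest of the 36. Its difference was -0.84 (SE 0.28, adjusted p = 0.139), and -0.28 without male LWT replicates 1 and 2. Timp2 had 9.52, 9.55 and 9.94 in females and 10.76, 9.87 and 9.13 in males in LWT mice and 9.38, 9.48 and 9.46 in females and 9.31, 9.11 and 9.22 in males in LKO mice, again with male LWT replicate 1 the highest of the 36. The Timp2 difference was -0.47 (SE 0.19, adjusted p = 0.228), against -0.07 without the 2 males. Timp3 had -0.40 (SE 0.164, adjusted p = 0.239) and Mmp14 -0.42 (SE 0.144, adjusted p = 0.149), against -0.17 and -0.17 without them. Adam17 had -0.25 (SE 0.0708, adjusted p = 0.0733) and Adam10 -0.22 (SE 0.0778, adjusted p = 0.169), against -0.14 and -0.10 without the 2 males. Adamts5 had -0.50 (SE 0.206, adjusted p = 0.233) and Adamts1 -0.22 (SE 0.12, adjusted p = 0.392), against -0.09 and 0.03 without them. Timp4 had 0.17 (SE 0.0846, adjusted p = 0.356) and Adamts13 0.07 (SE 0.0978, adjusted p = 0.81), against 0.14 and -0.04. Mmp9, by contrast, had 0.00 (SE 0.114, adjusted p = 0.994), with 7.12 to 7.34 in LKO and 7.07 to 7.33 in LWT mice. No member's LKO and LWT mice were fully apart on HFC, against 0.122% of genes above and 0.829% below.

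**Figure D4:**
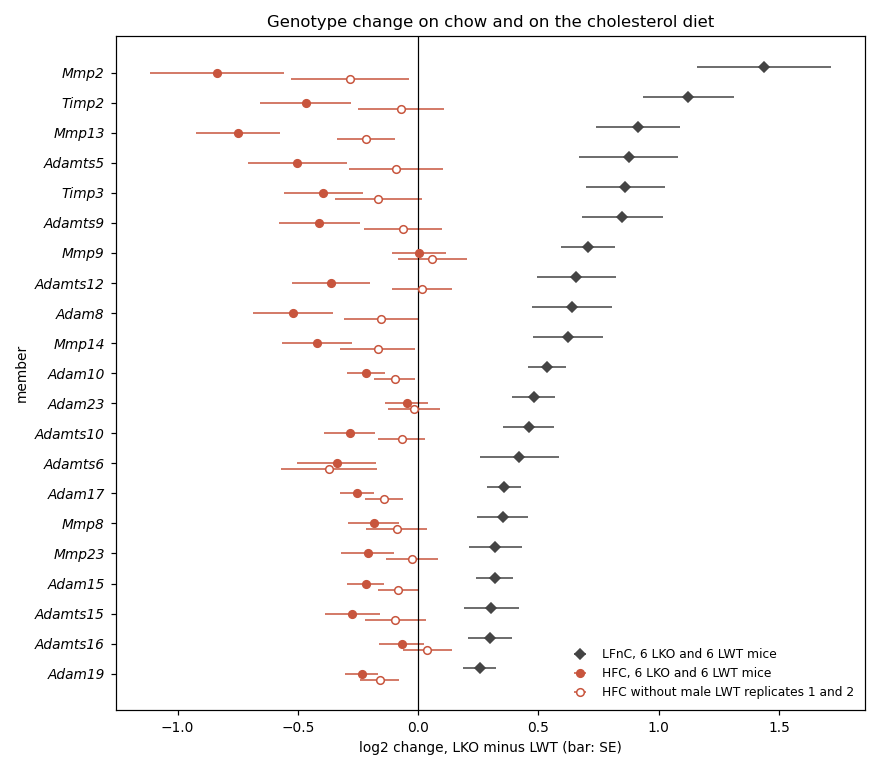
log2 change, LKO minus LWT, of the 21 members that rose on LFnC (black diamonds), with the same members on HFC over all 12 mice (filled circles) and without male LWT replicates 1 and 2 (open circles). Bars are SE. The LFnC values are above 0 because the members were chosen on them. On HFC most values lie below 0, and most are nearer 0 without the 2 mice.

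Cholesterol added to the high-fat diet raised 7 members in LWT livers (HFC against HFnC), against 3.5% of all genes called higher and 4.67% in either direction, and none fell. They were the collagenase Mmp13 (0.85, SE 0.174, adjusted p = 0.00379), Mmp27 (0.59, SE 0.146, adjusted p = 0.0167), Mmp2 (0.98, SE 0.28, adjusted p = 0.0386), Adam8 (0.61, SE 0.166, adjusted p = 0.0283), Adam17 (0.25, SE 0.0708, adjusted p = 0.0389), Adam19 (0.30, SE 0.0689, adjusted p = 0.00987) and Adamts10 (0.39, SE 0.105, adjusted p = 0.0256). Adam8 had 6.90, 6.95 and 7.05 in females and 6.87, 6.88 and 6.96 in males on HFnC. On HFC it had 6.94, 7.25 and 7.65 in females and 8.54, 7.81 and 7.08 in males. The HFC values spread upward from the HFnC range, with male replicate 1 the highest. Without HFC male LWT replicates 1 and 2, no member was called, and the changes were 0.32 for Mmp13, 0.43 for Mmp2 and 0.25 for Adam8. The count was 1 without HFC male LWT replicate 1, 2 without HFC female LWT replicate 3, and 3 without HFnC female LWT replicate 2 or 3 or HFnC male LWT replicate 1. It was 4 without HFnC female LWT replicate 1 or HFnC male LWT replicate 2, and 15 without HFC male LWT replicate 3. Over the leave-outs with 1 to 4 members 398 to 819 genes were called, and 2197 without HFC male LWT replicate 3. Mmp13 alone was called in all 12 of these leave-outs. With only these groups in the fit 1 member was called, with no count of all genes set beside it.

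In the same contrast 5 of 8 macrophage markers, 4 of 8 lymphocyte markers, 2 of 8 neutrophil markers and 1 of 8 stellate markers rose, as did 3 of 14 matrix proteins and 2 of 12 activators and inhibitors, Plau (0.75, adjusted p = 0.022) and Plaur (0.34, adjusted p = 0.0495), while Reck had a change of -0.55 (adjusted p = 0.00825), called lower. Of all genes, 3.5% were called higher in this contrast. The macrophage level of LWT mice ran from -0.62 to -0.06 on HFnC and from -0.19 to 0.63 on HFC. Its part in the members' values was not tested. In LKO livers, HFC against HFnC called 0 members in limma, against 1.01% of all genes (8 members and 2926 genes at an unadjusted p under 0.05). Mmp13 had -0.32 (SE 0.174, adjusted p = 0.391) there, Mmp2 -0.48 (SE 0.28, adjusted p = 0.429) and Adam10 -0.25 (SE 0.0778, adjusted p = 0.121).

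Whether the genotypes responded differently to cholesterol was tested directly. The cholesterol step in LKO minus that in LWT mice called 10 members, all below 0, against 4.58% of all genes called lower and 5.78% called in either direction. They were Mmp2, Mmp13, Timp2, Adam8, Adam10, Adam15, Adam17, Adam19, Adamts6 and Adamts10. Of these, 6 had been called for cholesterol in LWT mice, 0 with the same sign, and both contrasts use the same LWT mice. The difference was -1.18 (SE 0.246, adjusted p = 0.00548) for Mmp13 and -1.47 (SE 0.395, adjusted p = 0.026) for Mmp2. Without HFC male LWT replicates 1 and 2, no member was called, with -0.64 for Mmp13 (adjusted p = 0.0531) and -0.91 for Mmp2 (adjusted p = 0.238). The count was 4 without HFnC female LKO replicate 1, 5 without HFC male LWT replicate 1 or HFC female LWT replicate 3, and 19 without HFC male LWT replicate 3. In these fits 654, 592, 689 and 2746 genes were called, in that order. Timp2 lost its call in 19 of 24 leave-outs, Adamts10 in 8, Adam10 in 3, Adam8, Adam17 and Mmp2 in 2 each and Adamts6 in 1. Centring the arrays moved the median of all genes by 0.11 in this contrast and by 0.12 in the next.

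The genotype change on HFC minus that on LFnC called 29 members, 22 below 0 and 7 above. Of all genes, 14.6% were called lower, 16.7% higher and 31.3% in either direction. Of the 29, 27 had been called between the genotypes on LFnC, 0 of them with the same sign. The contrast holds the LFnC change with a minus sign, so its calls are not separate from those on LFnC. Side by side, Mmp2 had a genotype change of 1.44 on LFnC, 0.63 on HFnC and -0.84 on HFC. Timp2 had 1.12, 0.43 and -0.47, and Adam10 had 0.54, 0.19 and -0.22. The difference between HFC and LFnC was -2.27 (SE 0.395, adjusted p = 0.000145) for Mmp2, -1.59 (SE 0.268, adjusted p = 0.000104) for Timp2, -1.67 (SE 0.246, adjusted p = 3.09e-05) for Mmp13 and -0.75 (SE 0.11, adjusted p = 2.85e-05) for Adam10. Without HFC male LWT replicates 1 and 2, 18 members were called, 17 below 0, and these 4 differences were -1.72, -1.19, -1.13 and -0.63, all called. With the arrays centred, 51 members were called, 30 above 0 and 21 below, and of 10645 genes called, 78.9% were above 0. The pairing of mice by batch number was also fitted: with the replicate block, Adamts18 (adjusted p = 0.0512) and Adamts20 (adjusted p = 0.0566) were no longer called.

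Sex changed few members. Adamts6 was higher in females than in males of both genotypes, by 0.75 (SE 0.134, adjusted p = 0.000577) in LKO and 0.49 (SE 0.134, adjusted p = 0.0226) in LWT mice. In LKO mice on LFnC it had 8.25, 7.92 and 8.08 in females and 6.75, 7.72 and 7.50 in males, and on HFnC 8.01, 8.36 and 7.78 in females and 6.98, 7.47 and 7.47 in males. LKO females and males did not overlap on LFnC or HFnC. On HFC they did not overlap either, with 7.56, 7.73 and 7.42 in females and 6.58, 7.09 and 6.78 in males. In LWT mice on HFC the sexes overlapped, with 7.33, 8.14 and 7.67 in females and 7.58, 7.06 and 7.42 in males. The change in LWT mice lost its call without replicate 2 of the HFnC females (adjusted p = 0.0591), the HFnC males (0.0651), the HFC females (0.0545) or the HFC males (0.0557). No member was called in LWT mice without any one of these 4. Adamts6 also lost its call in LWT mice without HFC male LWT replicates 1 and 2 together, which leaves 1 mouse in that group. The count was 2 without LFnC female LWT replicate 1, LFnC male LWT replicate 1 or 2, or HFC male LWT replicate 3. It was 3 without HFnC male LWT replicate 3 or HFC male LWT replicate 1. With single mice left out as listed here, 923 to 1382 genes were called. Mmp14 was higher in LKO females than in LKO males by 0.46 (SE 0.118, adjusted p = 0.0159), and in LWT mice its difference was 0.07 (SE 0.118, adjusted p = 0.875). In all, 1 member was called in LWT mice, against 6.4% of genes (3.04% higher in females), and 2 in LKO mice, against 5.52% (2.53% higher in females). The effect of genotype did not pass the test of a difference between the sexes for any member, against 0.0712% of genes. At an unadjusted p under 0.05 there were 2 members and 1879 genes.

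Averaged over diets and sexes, 3 members were higher in LKO livers, against 2.06% of all genes called higher and 2.64% in either direction: Mmp9 (0.28, SE 0.0658, adjusted p = 0.0217), Adam23 (0.21, SE 0.051, adjusted p = 0.0242) and Adam10 (0.17, SE 0.0449, adjusted p = 0.0389). This average joins diets whose changes differ as given above. Adam10 lost its call in 21 of 36 leave-outs, with adjusted p up to 0.071, and Mmp9 and Adam23 in none. Without HFC male LWT replicate 1 there were 10 members, with 1345 genes called, against 520 with all mice. Without replicates 1 and 2, which leaves 1 mouse in that group, the changes were 0.37 for Mmp13, 0.50 for Timp2 and 0.59 for Mmp2.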

How the data were processed

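Per the submitters' processing notes, the deposited log2 values were made by the authors with RMA, and the sources used here do not give its version or the array build. The table had 35556 rows, 9856 of them without values and 25700 with. Of these, 20781 had 1 symbol, 235 several and 4684 none listed, and a gene was read from its row with the highest mean, which mattered for 565 of 19664 genes.

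A mean for each of the 12 groups was fitted over 36 arrays with limma 3.58.1 in R 4.3.3, with 14 contrasts. SE is the moderated standard error. Each array is 1 mouse, and the number of arrays limits the precision. On simulated data for the LFnC contrast over 19664 genes, 100 of 100 genes changed by 1 and 90 of 100 changed by 0.5 were recovered, and 12 unchanged genes were called. The noise was drawn independently for each gene, and only these genes were changed, equally up and down. In the data 33.4% of genes were called on LFnC, so these are not its error rates.

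Members and lists (matrix proteins, activators and inhibitors, Adam10 and Adam17 partners, and markers of hepatocytes, stellate cells, macrophages, neutrophils, ductular, endothelial, lymphoid and acinar cells) were chosen with earlier results of these data known. Of the 6 acinar genes, none was called on LFnC. Named were up to 20 called members per comparison by p, and Timp2, Timp3, Timp4, Mmp2, Mmp9, Mmp13, Mmp14, Adam10, Adam17, Adamts1, Adamts5 and Adamts13 in the genotype comparison on each diet. The labels' batch equals the replicate number, so numbers pair mice. Over 198 pairs of arrays of the same batch in different groups, deviations from group means correlated at a mean of 0.0226 (from -0.419 to 0.624), against -0.0112 over 396 pairs of different batches. The replicate block changed no count by over 1.5 times. Alternatives tried were the block, centring, a filter on dim genes, another moderation, the mean of a gene's rows, only the groups compared, an acinar covariate, and arrays left out.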

Additional observations from a re-analysis of the deposited data

Results flagged for a closer look

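The genotypes differed in their response to cholesterol (HFC minus HFnC, LKO minus LWT, log2 scale) for Mmp13 (-1.18), Adam19 (-0.41), Adam15 (-0.42), Adamts6 (-0.89), Adam17 (-0.39), Adam8 (-0.89), Adam10 (-0.41), Mmp2 (-1.47), Adamts10 (-0.54) and Timp2 (-0.90), by the difference-of-differences contrast in limma. The adjusted p ran from 0.00548 for Mmp13 to 0.0431 for Timp2. Without HFC male LWT replicates 1 and 2 the difference was -0.64 for Mmp13 and -0.91 for Mmp2. These 2 mice were picked for their values, and the mouse left, replicate 3, was mostly the lowest of the group. A smaller difference therefore follows in part from that choice. Without replicate 3 instead, 19 members and 2746 genes were called.

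The genotype change differed between HFC and LFnC (HFC minus LFnC) for Adam10 (-0.75), Mmp13 (-1.67), Adam17 (-0.61), Timp2 (-1.59), Mmp2 (-2.27), Timp3 (-1.26), Adamts9 (-1.26), Mmp14 (-1.04), Adam19 (-0.49) and Adamts10 (-0.74). It also differed for Adam8 (-1.16), Adam15 (-0.54), Adamts5 (-1.38), Adamts12 (-1.02), Mmp9 (-0.70), Adam23 (-0.53), Adamts15 (-0.58), Mmp8 (-0.54) and Mmp23 (-0.53), and for Mmp21 at 0.36. The adjusted p ran from 2.85e-05 for Adam10 to 0.0114 for Mmp23. Without HFC male LWT replicates 1 and 2, Adamts15 (adjusted p = 0.108), Mmp8 (adjusted p = 0.0796) and Mmp23 (adjusted p = 0.101) were no longer called, and the other 17 were. These 20 are those with the smallest p of the 29 called. Of the 29, 27 had been called on LFnC with the opposite sign, and the contrast holds the LFnC change with a minus sign. The mice behind both sets include the uneven HFC male LWT group, and its part was not tested beyond the values without it.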

How the results depend on the processing

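Each count of members called was recomputed under 8 other settings and with each array left out. None of the calls recomputed (up to 20 members per comparison) changed sign. Some uncalled differences did, also with single arrays left out: without HFC male LWT replicates 1 and 2, the HFC difference of Adamts1 went from -0.22 to 0.03 and that of Adamts13 from 0.07 to -0.04, and with centring those of Adamts1, Adamts13 and Timp4 on HFnC turned negative. With the acinar covariate, Adamts13 on HFnC and Mmp9 on HFC, both at 0.00, turned negative too. Leaving out HFC male LWT replicates 1 and 2, which leaves 1 mouse assumed to vary like the others, gave 14 members for the genotype over all diets, 0 on HFC, 0 for cholesterol in LWT, 0 for the genotype by cholesterol difference and 18 for the HFC against LFnC difference. With only the groups compared, the counts were 0 on HFC, 1 for feed in LKO, 1 for cholesterol in LWT and 6 for the genotype by cholesterol difference. With the acinar level as a covariate they were 0 on HFC and 6 for the genotype by cholesterol difference. No counts of all genes are set beside these, so they do not set the members apart. Centring gave 0 on HFC, with 78 genes called, and 51 for HFC against LFnC, with 10645 genes called. Moderation with a trend and robust settings gave 2 for sex in LWT. Apart from the fit without HFC male LWT replicates 1 and 2, the other counts stayed within 1.5 times.

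The pairing by replicate block left the count on LFnC at 35 and that for HFC against LFnC at 29, of which 27 were the same members. Over single arrays left out, the counts ran from 2 to 10 for the genotype over all diets, from 23 to 39 on LFnC, at 0 on HFnC, from 0 to 17 on HFC, at 0 for feed in LWT, from 1 to 13 for feed in LKO, from 1 to 15 for cholesterol in LWT and from 0 to 1 in LKO. They ran from 0 to 3 for sex in LWT, from 2 to 3 in LKO, from 0 to 5 for genotype by feed (5 without HFnC female LKO replicate 1), from 4 to 19 for genotype by cholesterol, from 25 to 35 for HFC against LFnC, and stayed at 0 for genotype by sex. The 1 call for cholesterol in LKO came without HFnC female LKO replicate 3, with 668 genes called. The 5 for genotype by feed came with 806 genes called. Where no count of all genes is given, a range does not set the members apart. The causes were not tested.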
